A study of Mus musculus with 43 samples.

Results

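The nuclear genes of the mitochondrial respiratory chain were examined in laser-captured hypothalamic nuclei of fed and fasted mice. Members were chosen by symbol: those starting with Nduf, Sdha to Sdhd, Uqcr, Cox and a digit, or Atp5, without mitochondrially encoded genes and pseudogenes. The rule took 50 of the 10127 genes measured, of which 37 encode structural subunits and 13 encode assembly factors that share the name stems, with Atp5s counted among these. A further 57 annotated coding genes with such symbols were not analysed here. All mice were adult males of the strain labelled C57/BL6 and lacked Snord116, a small nucleolar RNA cluster of the Prader-Willi region, on the paternal allele. Wild-type mice were not analysed here, and both feeding states carry the deletion. The arcuate nucleus (ARC), dorsomedial hypothalamus (DMH), paraventricular nucleus (PVN) and ventromedial hypothalamus (VMH) were captured from mice fed ad libitum or fasted for 24 hours. The 41 libraries came from 12 mice, 6 fasted and 6 fed, in 3 batches, and a mouse gave up to 4 libraries. Fasted and fed libraries numbered 4 and 5 in the ARC, 5 and 6 in the DMH, 5 and 5 in the PVN, and 6 and 5 in the VMH.

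The respiratory chain sits in the inner mitochondrial membrane. Complexes I and II pass electrons from NADH and succinate to ubiquinone, complex III passes them on to cytochrome c, and complex IV (cytochrome c oxidase) passes them to oxygen. Complex V, the ATP synthase, uses the resulting proton gradient to make ATP, on which neurons depend heavily for ion pumping. Several complex IV subunits exist as a widespread form and a form known from heart and skeletal muscle, as with Cox6a1 and Cox6a2. Assembly factors help to build the complexes without staying in them.

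The identity of the captures was visible in known marker genes. Fezf1, a ventromedial transcription factor, averaged 219.4 CPM (read counts scaled to library size) in the VMH against 1.53 in the ARC, and Npy averaged 473 in the ARC against 3.08 in the PVN. Avp averaged 800.4 CPM in the PVN and at most 3.95 elsewhere. The library total behind the CPM values, called depth here, was 1.94 to 8.23 M reads per library, with a median of 4.10 M. It was inferred from the low values and is not the number of reads sequenced. In bulk captures, fewer cells of a type and less RNA per cell cannot be told apart.

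Promoters of 4 members on which the results below turn are shown, from RefSeq on build GRCm38.p6. Each runs 5′ to 3′ over the 250 bases before the annotated start of transcription. Capitals mark matches, on either strand, to letters known from respiratory chain promoters: GCGCA, any base and GCGC in a row (NRF1), CCGGAAG (ETS factors), AAGATGGCG (YY1) and GGGCGG (SP1).
Cox6a1 (chr5:115348959-115349208, minus strand): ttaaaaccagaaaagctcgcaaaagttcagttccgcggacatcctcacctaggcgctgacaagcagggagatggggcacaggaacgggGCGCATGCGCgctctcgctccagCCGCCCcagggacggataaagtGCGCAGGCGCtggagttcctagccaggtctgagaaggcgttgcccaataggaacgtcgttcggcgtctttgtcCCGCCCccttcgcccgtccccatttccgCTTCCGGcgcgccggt
Cox5a (chr9:57520982-57521231, plus strand): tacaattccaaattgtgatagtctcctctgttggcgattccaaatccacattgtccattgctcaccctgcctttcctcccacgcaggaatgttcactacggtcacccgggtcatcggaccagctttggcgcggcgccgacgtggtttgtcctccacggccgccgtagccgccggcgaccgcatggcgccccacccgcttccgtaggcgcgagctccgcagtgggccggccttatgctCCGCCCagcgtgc
Sdhaf3 (chr6:6955768-6956017, plus strand): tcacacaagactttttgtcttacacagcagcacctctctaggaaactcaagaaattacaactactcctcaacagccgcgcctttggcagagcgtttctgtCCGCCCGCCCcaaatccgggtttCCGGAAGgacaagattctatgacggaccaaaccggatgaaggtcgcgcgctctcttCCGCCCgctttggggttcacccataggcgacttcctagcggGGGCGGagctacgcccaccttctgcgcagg
Cox8a (chr19:7217617-7217866, minus strand): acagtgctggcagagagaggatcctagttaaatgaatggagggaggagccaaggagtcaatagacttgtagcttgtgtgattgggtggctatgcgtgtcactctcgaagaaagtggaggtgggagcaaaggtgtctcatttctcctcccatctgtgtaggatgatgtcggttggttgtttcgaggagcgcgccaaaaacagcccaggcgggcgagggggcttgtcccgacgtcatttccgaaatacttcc

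Cox6a1 had 2 NRF1 matches, 2 SP1 matches and 1 ETS match in this window, the last starting 16 bases before the start. Cox5a had 1 SP1 match before the start and 1 after it. Sdhaf3 had 4 SP1 matches and an ETS match before the start, and an NRF1 match that spanned it. Cox8a had no match wholly before the start, 1 ETS match that spanned it and 1 ETS match after it. Entries were found for 42 members, in 44 promoters of 300 bases, and those without one were Cox6a2, Cox17, Cox18, Cox4i1, Ndufaf6, Sdhc, Uqcrc2 and Uqcrq. The ETS letters were present in 18 of the 44 member promoters (40.9%), against 15.4% of the 9109 promoters of genes in the table and 8.86% of all 32851 promoters. The YY1 letters were present in 5 (11.4%), against 2.39% and 1.40%, and the NRF1 letters in 6 (13.6%), against 8.49% and 4.60%. For the SP1 letters the member share of 50% stood against 58.1% and 35.7%. Matches to different motifs did not overlap in any member promoter. A match describes the letters only.

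Structural subunits of complex IV were the most abundant members per kilobase of transcript, and assembly factors the least. Per length, medians over genes were 129.5 CPM per kb for the 11 complex IV subunits, 77.9 for the 6 of complex V, 76.0 for the 5 of complex III, 56.8 for the 13 of complex I and 45.5 for the 2 of complex II. The 13 assembly factors had a median of 9.77 CPM per kb. In mean CPM over the 41 libraries, the members' median was 52.7, against 17.2 for all genes.

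**Figure D1:**
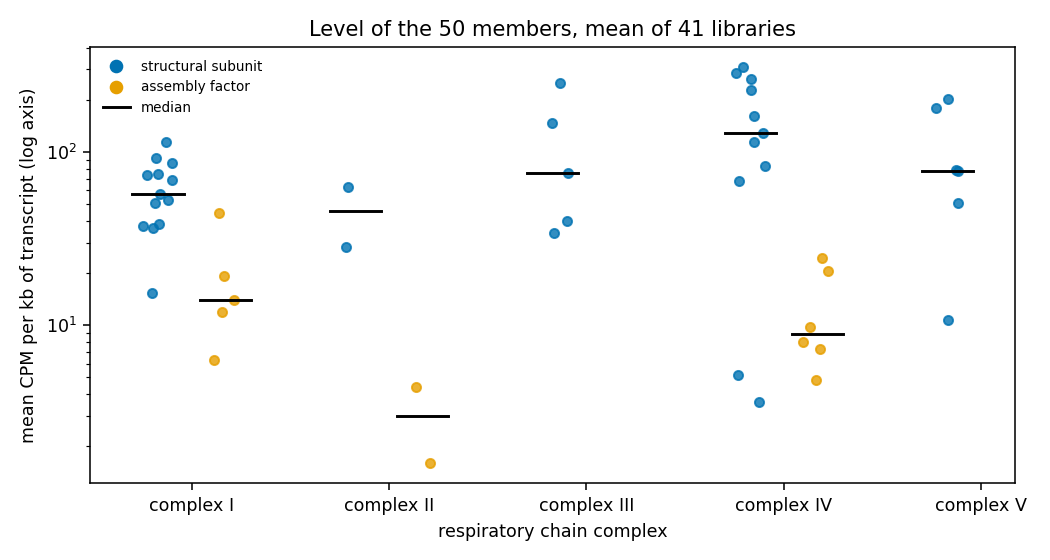
Mean CPM per kb of the principal transcript (log axis) over 41 libraries, 1 point per member, by complex, with structural subunits in blue, assembly factors in orange and medians as lines. Complex IV holds both the highest subunit, Cox4i1 at 309 CPM per kb, and the lowest, Cox6b2 at 3.62.

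Complex IV holds several isoform pairs. Per length, Cox4i1, the widespread form of the subunit that binds ATP, had 309 CPM per kb, Cox8a 287, Ndufa4 (a subunit first assigned to complex I) 263.5 and Cox6a1 228. Cox6b1 had 161 CPM per kb and Cox7a2 115. The partners of Cox6a1 and Cox6b1 known from other tissues were low: Cox6a2, of heart and muscle, had 5.17 CPM per kb, and Cox6b2, of testis, 3.62. Partners of the other subunits named here were not among the members analysed. Cox5a and Cox5b, core-associated subunits, had 67.6 and 83.5 CPM per kb.

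In complex I the highest members per length were Ndufc2 (114 CPM per kb) and Ndufb10 (92.7), both accessory subunits. The lowest subunits were Ndufab1, the acyl carrier protein (15.4), and Ndufv1, which holds the NADH site (36.4), and the lowest assembly factors were Ndufaf6 (6.31) and Ndufaf8 (11.9). Uqcrh (249.6) and Uqcr10 (147), small accessory subunits, led complex III, in which Uqcrq (34.0) and the Rieske iron-sulfur protein Uqcrfs1 (40.01) were lowest. Complex V ran from Atp5h (201.1) and Atp5k (179) down to Atp5f1 (50.9) and Atp5g2, a gene for the c-ring subunit (10.75). In complex II the membrane anchors Sdhd (62.7) and Sdhc (28.3) lay above the assembly factors Sdhaf3 (4.38) and Sdhaf1 (1.59). Among the complex IV assembly factors, Cox16 was highest (24.5) and Cox10, which makes heme O, was lowest (4.84). These levels depend on the transcript taken as principal. Levels of Atp5k, Atp5l, Uqcrh and Ndufab1, which have named pseudogene copies, are uncertain where reads could be split between copies.

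The first comparison asked in which nucleus each member was highest. In an F-test between the 4 nuclei with mouse as a block, 15 of the 50 members differed (limma, Benjamini-Hochberg adjusted p under 0.1 over all genes), against 43.3% of all genes. They comprised 11 of the 37 subunits and 4 of the 13 assembly factors, with 4 in complex IV, 3 in complex III, 3 in complex I, 1 in complex II and 0 of the 6 in complex V. The smallest adjusted p values belonged to Cox6a2 (8.1e-07), Cox6a1 (2.1e-05), Cox5a (0.000761), Sdhaf3 (0.00111), Cox17 (0.00338), Cox16 (0.00652), Ndufv1 (0.0106) and Sdhd (0.0116). Across single contrasts of a nucleus with the mean of the others, 20 of the 50 members were called at least once, against 49% of all genes.

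Cox6a2, the heart and muscle form of subunit 6A, was the member that differed most. In the PVN it ranged from 0 to 0.378 CPM over 10 libraries with a median of 0, and 6 of these libraries were at 0. The other 4 libraries held 1, 1, 1 and 2 reads. In the 6 libraries at 0, the limit that a count of 0 allows (3 reads, counting error only) is 0.413 to 1.145 CPM. In the ARC its lowest, median and highest values were 1.97, 5.08 and 11.6 CPM over 9 libraries. The values were 0.339, 5.53 and 11.02 CPM in the DMH and 0, 2.21 and 9.19 CPM in the VMH, over 11 libraries each. Every ARC library lay above every PVN library, whereas the DMH and the VMH each reached down to PVN levels in some libraries. On the log2(CPM + 0.5) scale, Cox6a2 was lower in the PVN by -2.59 ± 0.37 (SE, limma, adjusted p = 4.5e-07), lower in 10 of 10 mice. It was higher in the ARC by 1.71 ± 0.38 (adjusted p = 0.000909), in 9 of 9 mice. Its exons overlap those of Itgad on the opposite strand by 70 bp, and whether reads were counted by strand is not given in the sources used here.

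Cox6a1, the widespread partner of Cox6a2, was highest in the VMH. Its lowest, median and highest values were 102.5, 162 and 328 CPM in the VMH over 11 libraries, 65.1, 118 and 180 CPM in the ARC over 9, 89.2, 110.7 and 159 CPM in the DMH over 11, and 82.8, 106 and 153 CPM in the PVN over 10. The ranges overlapped, but within mice the VMH was above the mean of the other nuclei in 10 of 10. The log2 difference was 0.56 ± 0.09 (SE, limma, adjusted p = 1.9e-06), and within batches 1, 2 and 3 it was 0.80, 0.57 and 0.43. The difference of -0.21 ± 0.09 in the PVN had an adjusted p of 0.0947 and lost its call when any of 7 mice was left out (adjusted p up to 0.222). Cox6a2 as a share of the CPM of the pair had a median of 5.16% in the ARC, 5.28% in the DMH, 1.40% in the VMH and 0% in the PVN.

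**Figure D2:**
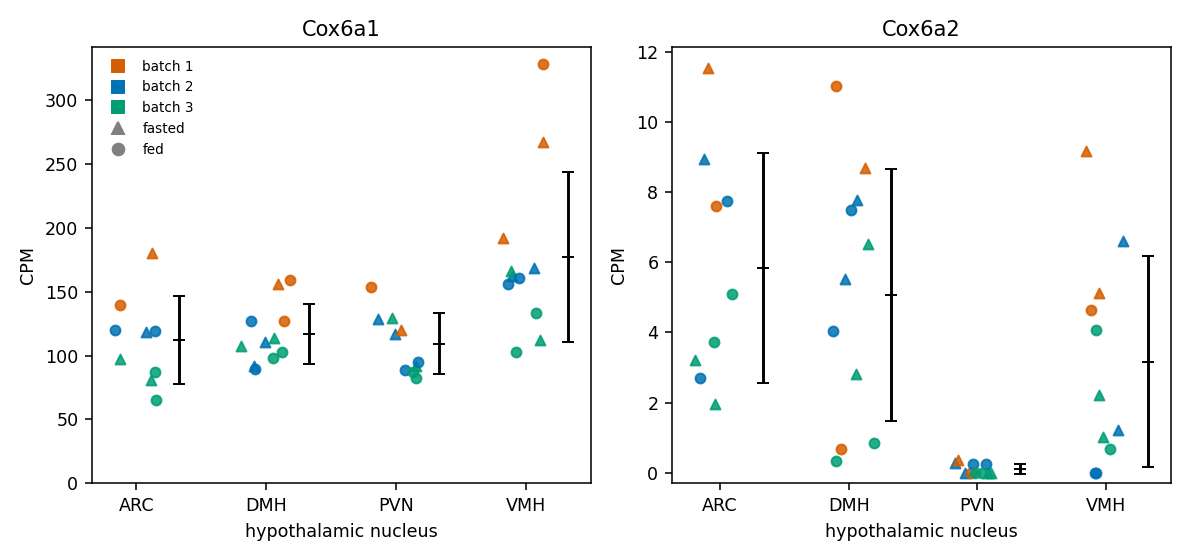
CPM of Cox6a1 (left) and Cox6a2 (right) in each library by nucleus, coloured by batch, with triangles for fasted and circles for fed mice and black bars for mean ± SD. Cox6a1 is highest in the VMH, reaching 328 CPM, and all PVN libraries lie at 0.378 CPM or less for Cox6a2.

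In the VMH, 12 members were called against the other nuclei, 10 higher and 2 lower, while 32.1% of all genes were called. The median log2 difference was 0.09 over the members and -0.02 over all genes. Within batches 1, 2 and 3 the members' median was 0.32, 0.07 and 0.008, with 40, 34 and 26 of the 50 members positive. The raised members were 3 subunits of complex I, 2 of complex III, 4 of complex IV and the assembly factor Cox10, and 0 of the 6 complex V subunits were called. Cox5a was raised by 0.38 ± 0.11 (SE, limma, adjusted p = 0.00534). It averaged 52.7 ± 11.8 CPM (SD, n = 11) in the VMH, 34.7 ± 7.27 (n = 11) in the DMH, 40.7 in the ARC and 46.1 in the PVN. Uqcrc2, a core protein of complex III, was raised by 0.36 ± 0.10 (adjusted p = 0.00308) in 10 of 10 mice, with 170 ± 19.2 CPM in the VMH and 131 ± 20.9 (n = 9) in the ARC. The values of both genes overlapped between the VMH and the other nuclei.

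Among the other raised VMH members, Cox10 had the largest rise, 0.77 ± 0.22 (adjusted p = 0.00774), from a low level of 19.7 ± 7.85 CPM in the VMH and 10.1 ± 4.004 (n = 10) in the PVN. Its mean was 14.3 CPM in the DMH and 11.6 in the ARC. Ndufv1, the NADH-binding flavoprotein, was higher by 0.34 ± 0.10 (adjusted p = 0.00917), and Ndufs8, an iron-sulfur subunit, by 0.33 ± 0.12 (adjusted p = 0.0324). Uqcrq was raised by 0.35 ± 0.11, Cox7b by 0.27 ± 0.09 and Cox5b by 0.22 ± 0.10, with adjusted p values of 0.0168, 0.0178 and 0.0819 from limma. Ndufb7, named after its value was seen, was the remaining raised member (0.29 ± 0.12, adjusted p = 0.0575). Cox16, which acts in the maturation of the catalytic subunits of complex IV, was lower by -0.42 ± 0.13 (adjusted p = 0.0115), in 9 of 10 mice. Sdhaf1 was lower by -0.70 ± 0.30 (adjusted p = 0.0837) at a mean of only 2.77 CPM in the VMH. Its exons overlap those of E130208F15Rik on the opposite strand by 1733 bp. Without batch 1 the calls of Ndufs8, Ndufb7, Cox5b and Sdhaf1 were lost (adjusted p 0.153, 0.115, 0.486 and 0.379), and those of Cox5b and Sdhaf1 also when any of 5 mice was left out (up to 0.219 and 0.284).

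Oligodendrocyte markers moved with the VMH. All 5 oligodendrocyte markers used, Mbp and Mog among them, were called higher there, and their summed level ranged from 640.3 to 1276 CPM in the VMH, 298 to 1109 in the DMH, 239 to 453 in the PVN and 157 to 458 in the ARC. Of 3 measured neuronal markers (Syp, Syt1 and Tubb3), 2 were called higher in the VMH. Their summed levels were 1651 to 2201 CPM there, 1508 to 2047 in the DMH, 1246 to 2092 in the PVN and 1221 to 1602 in the ARC. The VMH range thus overlapped those of the DMH and the PVN. Of 4 astrocyte markers 1 was called higher, and 0 of 6 microglial markers were called. Of 8 vessel markers 1 was higher and 2 were lower, and 1 of 3 ependymal and tanycyte markers was higher. The part of these markers in the VMH differences of the members was not tested.

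In the PVN, 8 members were called, 6 higher and 2 lower, against 23.1% of all genes. The lower ones were Cox6a2 and Cox6a1. Sdhaf3, an assembly factor that helps to mature the iron-sulfur subunit of complex II, was highest here: its lowest, median and highest values were 10.6, 26.5 and 71.1 CPM in the PVN, 2.53, 11.6 and 23.0 in the ARC, 9.81, 13.1 and 26.01 in the DMH, and 7.22, 21.7 and 28.7 in the VMH. It exceeded the mean of the other nuclei in 10 of 10 mice, although the values overlapped. The difference was 0.86 ± 0.23 (SE, limma, adjusted p = 0.00455), and 1.57, 0.79 and 0.45 within batches 1, 2 and 3. The highest PVN value came from the only fasted PVN library of batch 1, and without its mouse the difference was 0.62 (adjusted p = 0.0195).

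The other members raised in the PVN were Uqcrfs1 (0.35 ± 0.11, adjusted p = 0.0168), Cox16 (0.41 ± 0.13, adjusted p = 0.0179), Sdhd (0.32 ± 0.10, adjusted p = 0.0195), Ndufa13 (0.24 ± 0.09, adjusted p = 0.0489) and Uqcrh (0.20 ± 0.08, adjusted p = 0.0677), all from limma. Sdhd, which anchors complex II and binds ubiquinone, averaged 91.2 ± 22.9 CPM (SD, n = 10) in the PVN and 67.8 ± 17.5 (n = 11) in the DMH. Its mean was 79.5 CPM in the VMH and 70.3 in the ARC. Uqcrfs1 averaged 65.4 ± 10.03 CPM in the PVN and 49.2 ± 9.10 (n = 11) in the VMH. Uqcrh was no longer called when any of 5 mice was left out, with an adjusted p of up to 0.199. The calls of Ndufa13 and Cox6a1 were lost without batch 1. Of 8 vessel markers measured, 5 were called higher in the PVN, and their summed level was 174.5 to 287 CPM there against at most 157 in any other library. Of the oligodendrocyte markers, 3 of 5 were called lower (Mbp -0.67, Cldn11 -0.87 and Mog -0.65). Among neuronal markers Syt1 was lower (-0.69) and Tubb3 higher (0.51), 1 of 4 astrocyte markers (Agt, 0.43) was higher, and 2 of 3 ependymal and tanycyte markers were lower. Their part in the PVN differences was not tested.

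In the ARC, 4 members were called, 2 higher and 2 lower, against 21.4% of all genes. Beside Cox6a2, Cox17, a copper chaperone of complex IV, was higher by 0.47 ± 0.12 (SE, limma, adjusted p = 0.00313) in 9 of 9 mice. Its lowest, median and highest values were 72.5, 91.7 and 110 CPM in the ARC, 33.5, 64.0 and 113 in the DMH, 55.2, 71.4 and 82.1 in the PVN and 57.2, 67.6 and 109 in the VMH. The ARC values overlapped with those of each other nucleus. Cox17 shares 257 bp of exon with Gm21987 on the same strand, and Cox16 shares 2130 bp with Gm20498, so their reads may be split or shared. Sdhaf3 was lower in the ARC by -1.02 ± 0.24 (adjusted p = 0.00139), in 8 of 9 mice, and by -2.39, -0.94 and -0.16 within batches 1, 2 and 3. Ndufv1 was lower by -0.28 ± 0.10 (adjusted p = 0.0645), in 9 of 9 mice. That call was lost without batch 1, without the mouse block and with values scaled to the sum over all genes. It was also lost when any of 3 mice was left out (limma, adjusted p up to 0.145).

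Marker genes also moved with the ARC. All 3 neuronal and all 4 astrocyte markers measured were called lower there, and the summed astrocyte level was 123 to 183 CPM in the ARC and 181 to 413 elsewhere. Of 3 measured ependymal and tanycyte markers, 2 were called higher, with a summed level of 24.3 to 71.2 CPM in the ARC and at most 26.4 elsewhere. Of the oligodendrocyte markers, 3 of 5 were called lower (Mobp -1.37, Mag -1.17 and Mbp -0.81), and so were 3 of 8 vessel markers, while 1 of 6 microglial markers (C1qc, 0.66) was called higher. Their part in the ARC differences was not tested.

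In the DMH, 4 members were called, all lower, against 14.8% of all genes, and 38 of the 50 members had a negative difference (median -0.10, against 0.02 over all genes). Within batches 1, 2 and 3 the members' median was -0.18, -0.13 and -0.04. Cox5a was lower by -0.44 ± 0.11 (SE, limma, adjusted p = 0.0039), in 9 of 10 mice, and by -0.57, -0.40 and -0.37 within the 3 batches. Cox17 was lower by -0.38 ± 0.11 (adjusted p = 0.0216). The other called members were Ndufa9, a complex I accessory subunit at -0.23 ± 0.09 (adjusted p = 0.0753), and Sdhd at -0.26 ± 0.10 (adjusted p = 0.0932). Both lost the call when any of several mice was left out, 5 for Ndufa9 (adjusted p up to 0.167) and 7 for Sdhd (up to 0.241), and that of Ndufa9 was also lost without batch 1. Among markers, the neuronal gene Syt1 (0.59) and the astrocyte genes Agt (0.64) and Gja1 (0.39) were called higher in the DMH. Called lower were 1 of 3 ependymal and tanycyte markers (Col23a1, -0.93) and 2 of 8 vessel markers, while 0 of 5 oligodendrocyte markers were called. Their part in the DMH differences was not tested.

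**Figure D3:**
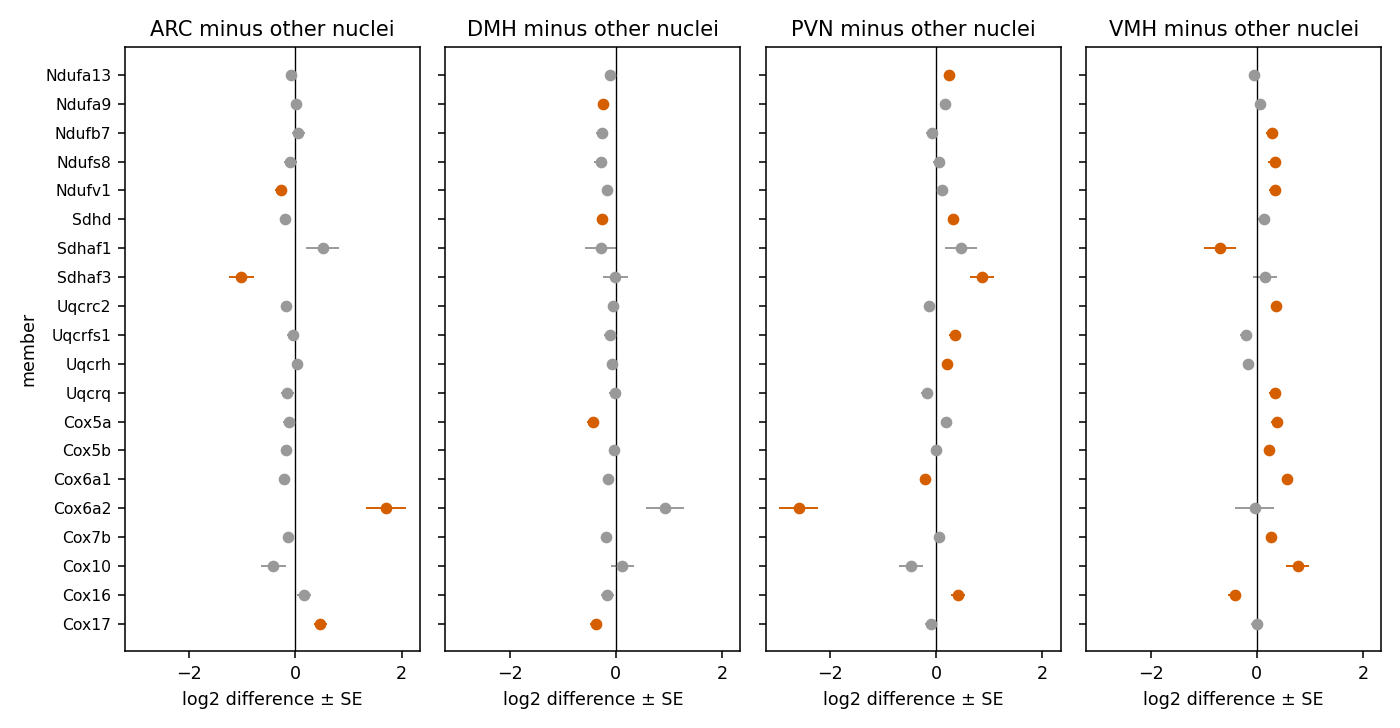
Log2 difference ± SE of each nucleus against the mean of the other nuclei for the 20 members called at least once, orange where the adjusted p was under 0.1 and grey otherwise. Cox6a2 spans the widest range, from -2.59 in the PVN to 1.71 in the ARC, and 10 of 12 called members in the VMH lie to the right of 0.

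Genes that work beside the chain were read from lists in the same fits, in which 21.4%, 14.8%, 23.1% and 32.1% of all genes were called in the ARC, DMH, PVN and VMH. Of 6 tricarboxylic acid cycle genes measured, 3 were called higher in the VMH (Idh3a 0.35, Pdha1 0.25 and Suclg1 0.22) and 2 lower in the ARC (Idh3a -0.45 and Pdha1 -0.38), and Dlat was called higher in the PVN (0.26, limma, adjusted p = 0.0239). Of 9 genes for electron carriers and metabolite exchange, the ubiquinone synthesis gene Coq9 was higher in the VMH (0.60), and Coq7 and Coq5 were lower in the ARC (-0.63 and -0.44). Coq7 was also higher in the DMH (0.52), and the phosphate carrier gene Slc25a3 in the PVN (0.18). Of 14 further assembly factors, 3 were called higher in the VMH, namely Dmac2 (0.59), Nubpl (0.51) and Ttc19 (0.21). In the PVN Dmac2 (-0.61) and Nubpl (-0.54) were lower, Coa4 was higher in the ARC (0.84) and Coa6 lower in the DMH (-0.63). Of 5 biogenesis regulators, Ppargc1a, the coactivator PGC-1alpha, was higher in the PVN (0.64 ± 0.16, limma, adjusted p = 0.00328) and lower in the ARC (-0.61 ± 0.17, adjusted p = 0.00725) and the VMH (-0.40 ± 0.16, adjusted p = 0.0599), and Tfb1m was lower in the VMH (-0.70, adjusted p = 0.0556). Of 42 mitochondrial ribosome genes, 6 were called in the VMH, 4 higher and 2 lower, 4 in the PVN, 4 in the DMH and 0 in the ARC. Mitochondrially encoded subunits were not analysed here.

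The second comparison asked whether a 24-hour fast changed the members. No member passed the threshold within a single nucleus: 0 of 50 in the ARC, where 0.176% of all genes were called, 0 of 50 in the DMH (0.0103%), 0 of 48 in the PVN (0.367%) and 0 of 50 in the VMH (0.0208%). Cox6a2 and Cox6b2 did not pass the filter on low values in the PVN. At an unadjusted p under 0.05 from limma, 1, 2, 3 and 3 members were found in the ARC, DMH, PVN and VMH, against 8.1%, 6.62%, 9.97% and 6.98% of all genes. The members' median log2 changes were 0.003, 0.09, 0.04 and -0.08, and those of all genes were 0.02, 0.01, 0.01 and -5.2e-05. In the DMH 40 of 50 members had a positive value, against 51.4% of all genes, and in the VMH 13 of 50 did, against 50% of all genes. With 1 library left out the members' median ranged from 0.03 to 0.17 in the DMH and from -0.13 to -0.01 in the VMH.

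The members with the smallest unadjusted p in each nucleus did not form one group. In the ARC these were Cox8a (0.36 ± 0.14, SE, limma, adjusted p = 0.551) and Atp5g2 (0.88 ± 0.44, adjusted p = 0.615). In the DMH they were Atp5f1, a stator subunit of the ATP synthase (0.38 ± 0.17, adjusted p = 0.745), and Cox6a2 (1.23 ± 0.59, adjusted p = 0.753). In the PVN they were Cox8a (0.36 ± 0.12, adjusted p = 0.31) and Sdhd (-0.39 ± 0.17, adjusted p = 0.452), and in the VMH Ndufa9 (-0.39 ± 0.15, adjusted p = 0.619) and Cox15, which makes heme A (-0.59 ± 0.24, adjusted p = 0.641). Fasted and fed libraries overlapped for each of these.

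Over the 4 nuclei together, 1 of 50 members was called, Cox8a, against 3.12% of all genes, and the members' median change was 0.003. Among cell type markers in the same fit, the astrocyte gene Agt (0.49, limma, adjusted p = 0.00319) and the neuronal gene Syp (0.20, adjusted p = 0.0288) were called higher in fasted mice and the vessel gene Flt1 lower (-0.33, adjusted p = 0.0947). Syp was also called higher in the PVN (0.43, adjusted p = 0.069). Their part in the fasting change of Cox8a was not tested. Cox8a is the widespread form of the smallest complex IV subunit. In fasted ARC it measured 108, 141, 161 and 326 CPM, and in fed ARC 101.1, 105, 121, 127.3 and 213. In fasted PVN it measured 132, 133, 134, 160 and 344.5 CPM, and in fed PVN 98.6, 108, 116, 121 and 248. In these nuclei the highest value in each state came from the 1 library of batch 1. In the DMH the 5 fasted values were 117, 130, 132, 139 and 189 CPM, and the lowest, median and highest fed values were 80.7, 139.8 and 255. In the VMH the lowest, median and highest fasted values were 129, 168 and 234 CPM and the 5 fed values were 114, 123, 129, 131 and 291.

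The change of Cox8a was 0.23 ± 0.07 (SE, limma with mouse as a block, adjusted p = 0.0665), and 9 of 12 within-batch differences in single nuclei were positive, from -0.32 to 0.61. The correlation within a mouse used for the block was -0.0036, so libraries of 1 mouse counted almost as independent replicates. This also holds for the 3.12% of all genes called in that fit. With 1 value per mouse, an alternative added after the data were seen, the change of Cox8a was 0.16 (adjusted p = 0.749), and without the batch covariate 0.23 (adjusted p = 0.864). In the fit with 1 value per mouse, mouse 85 (VMH) and mouse 92 (DMH) had a single library each. Leaving out 1 mouse ended the call for 6 of the 12 mice, 3 of batch 2 and 3 of batch 3, with an adjusted p of up to 0.298. Without batch 1 the change was 0.27 (adjusted p = 0.0228). Cox6a2 was next at 0.70 ± 0.31 (adjusted p = 0.293). A p that misses the threshold does not show that the other members were the same in both states.

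A test of unequal fasting changes among the nuclei called 0 of 50 members and 0.0% of all genes (limma). At an unadjusted p under 0.05 it gave 0 members and 563 genes, and the smallest p values were 0.0763 for Cox15 and 0.0807 for Cox17. In the fit over the 4 nuclei, 3.12% of all genes were called for fasting. Among the neighbouring lists, that fit called 1 of 6 tricarboxylic acid cycle genes (Dlat, 0.24, limma, adjusted p = 0.0676). It called 0 of 9 electron carrier genes, 0 of 14 assembly factors and 0 of 5 biogenesis regulators.

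**Figure D4:**
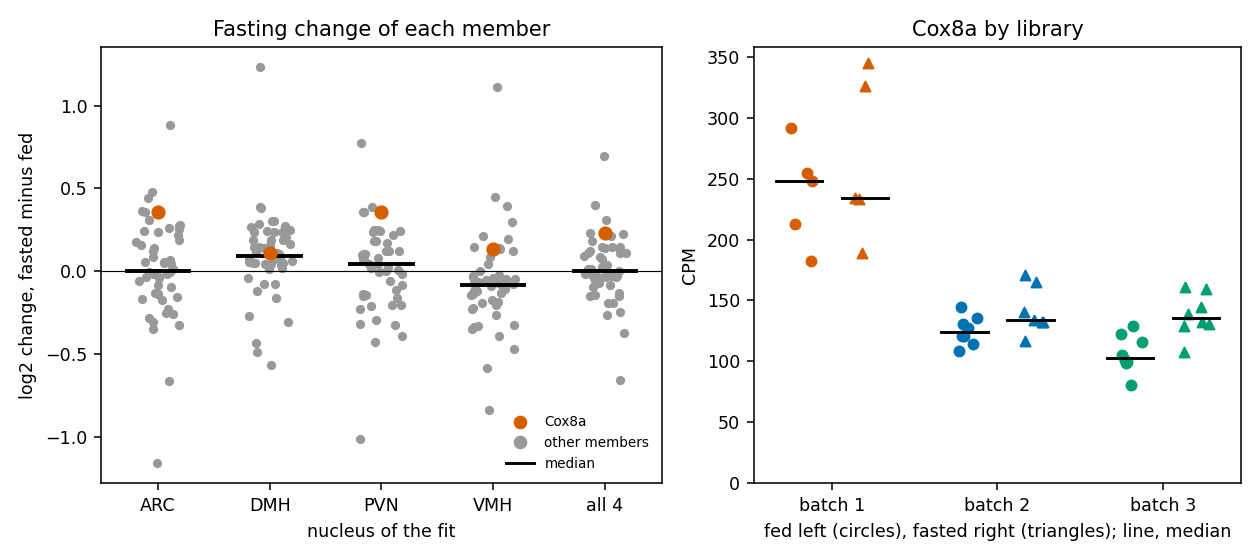
Left, log2 change in fasted against fed mice for each member (grey points), with Cox8a in orange and the median as a line, per nucleus and over the 4 nuclei. Right, CPM of Cox8a in each library by batch, fed (circles) and fasted (triangles), where every batch 1 library lies above every library of the other batches.

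Batch moved with the members. Batch accounted for a median of 24.7% of the variance of a member and 7.37% of that of a gene in the whole table, nucleus for 10.6% and 14.8%, and state for 1.77% and 1.39%. Mouse, which includes the differences between batches, accounted for 45.6% and 30.5%. These shares are not adjusted for the number of levels, and a factor with more levels takes a larger share by chance. Mouse had 12 levels, nucleus 4 and batch 3, so shares of different factors are not directly comparable. Each batch held 2 fasted and 2 fed mice. In batch 1, mouse 85 gave only a VMH library and mouse 92 only a DMH library. The comparison of batch 1 with the mean of batches 2 and 3 was added after the data were seen. This comparison used 1 value per mouse, from a single library for mice 85 and 92. In it 26 of 50 members were called, 21 higher and 5 lower in batch 1, against 26.8% of all genes. Library measures moved with batch 1 too. Genes at 0 numbered 350 to 525 (median 392.5) in batch 1, 119 to 534 (median 212) in batch 2 and 95 to 665 (median 199.5) in batch 3. The CPM of all genes in the table summed to 604720 to 689010 in batch 1, 556880 to 611610 in batch 2 and 554900 to 600450 in batch 3. Median depth, as the inferred total behind the CPM, was 3.36, 4.20 and 4.73 M reads. The part of these in the batch difference was not tested. The median difference was 0.28 over the members and -0.02 over all genes, and the called members included 22 of 37 subunits and 4 of 13 assembly factors.

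Cox8a stood out here as well. Its lowest, median and highest values were 182, 241 and 344.5 CPM in the 10 batch 1 libraries and 80.7, 129 and 171 in the 31 others, with no overlap, a difference of 0.95 ± 0.13 (SE, limma, adjusted p = 0.00197). Cox4i1 was higher by 0.67 ± 0.11 (adjusted p = 0.00308), Cox6b1 by 0.68 ± 0.12 (adjusted p = 0.00515) and Cox6a1 by 0.66 ± 0.11 (adjusted p = 0.00459). For these 4 genes the batch 1 mice did not overlap the other 8. The 5 lower members, named after their values were seen, were Sdhaf3 (-0.65), Ndufaf2 (-0.60), Cox16 (-0.44), Atp5f1 (-0.33) and Uqcrc2 (-0.25). The summed CPM of the 37 subunits was 2989 to 4704 in batch 1, 2307 to 3045 in batch 2 and 2284 to 2937 in batch 3.

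Transcript length moved with the batch difference. Of the 26 members with a principal transcript under 1000 bp, 25 were higher in batch 1 (median 0.49), and so were 8 of 15 from 1000 bp to under 2000 bp (median 0.05) and 6 of 9 of 2000 bp or more (median 0.09). Over all genes with a length, the medians in these classes were 0.27, 0.11 and -0.05. Across the 50 members, which share libraries and are not independent, Pearson's r between log2 length and the difference was -0.46, and over the 8472 genes with a length it was -0.17. The part of length in the batch difference was not tested. Among other genes, 3 of 6 microglial markers were called higher in batch 1, with summed levels of 91.2 to 177 CPM against 52.4 to 115 in batch 2 and 62.0 to 114 in batch 3. Also called higher were 2 of 5 oligodendrocyte markers (Mbp 0.84 and Mag 0.79), 3 of 8 vessel markers and 1 of 4 astrocyte markers (Agt, 0.56), while Syt1 was lower (-0.24). Of the 6 tricarboxylic acid cycle genes, Dlat (-0.77) and Pdha1 (-0.80) were called lower. The part of these genes in the batch difference was not tested.

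**Figure D5:**
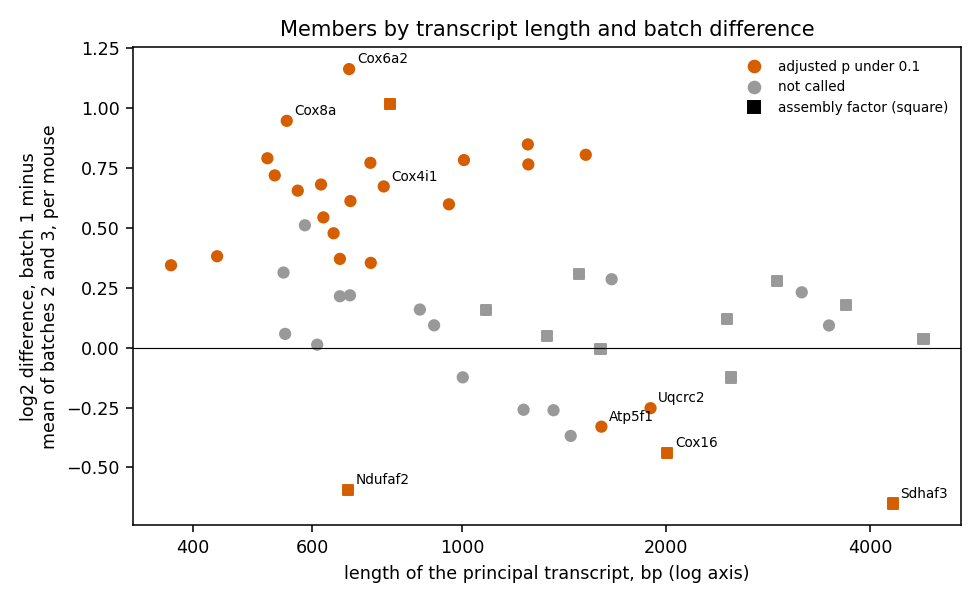
Log2 difference of batch 1 from the mean of batches 2 and 3, from 1 value per mouse, against the length of the principal transcript (log axis), 1 point per member, orange where the adjusted p was under 0.1, with squares for assembly factors. Of the 26 members under 1000 bp, 25 lie above 0, and the lowest point is Sdhaf3 at -0.65.

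Across the 41 libraries the median correlation between subunits was positive, but no value over pairs of other genes is given here for comparison. As a description over pairs of the 37 subunits, the median Pearson r of log2 values was 0.34 within a complex (159 pairs) and 0.31 between complexes (507 pairs). After removal of nucleus and batch means these were 0.13 and 0.14. The libraries share mice and a common total, and no test was made.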

How the data were processed

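Nuclei were laser-captured from cryosections, total RNA was amplified by NuGEN's Ovation V2 kit, and per the labels and the submitters' processing notes reads were handled with CASAVA 1.7, TopHat2 2.0.11 and Cufflinks 2.2.1 on GRCm38, then edgeR and limma. Per the study's methods, libraries that stood apart in a multidimensional scaling plot were excluded. Whether that came before deposit is not stated there, and if it did, the replicate spread may be too small. The deposited values are CPM, 1 table with a row per Ensembl gene. Strand use in counting is not given in the sources used here. Exons of 20 members overlap those of another gene. On the opposite strand this was 1955 bp for Ndufaf2, 1733 bp for Sdhaf1, 504 bp for Uqcrc2, 375 bp for Ndufa13 and 269 bp for Cox5a. Of the columns of deposited values, 41 were matched to samples by nucleus, state and mouse number, 2 fitted no sample (left out), and 2 of 43 samples were not analysed here. Those 2 columns are named for the ARC, and the 2 samples are labelled PVN with the same states and mouse numbers, so they may be the same libraries. Both mice are of batch 1, which leaves 1 batch 1 library per state in the ARC and the PVN. Symbols and lengths came from GENCODE M21. Low values were multiples of what 1 read is worth, within 0.02 reads, in 96.8% to 98.6% of cases per library. This gave the depth, meaning the total behind the CPM and not the number of reads sequenced. Whole reads were not recovered for every gene, so no test on counts was run.

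Tests used log2(CPM + 0.5) in limma 3.58.1 (R 4.3.3; lmFit, eBayes with trend), 2-sided, adjusted over all genes and called under 0.1. The log scale understates changes of low genes. Fasting was tested per nucleus with batch as covariate, for genes reaching a CPM of 1 in at least the number of libraries of the smaller group, and over the 4 nuclei with nucleus, batch and mouse as a random block, for genes reaching it in 4 libraries or more. Differences between nuclei, and between nuclei in fasting response, had mouse as a fixed block. Mouse numbers in the titles name the same animal across nuclei, so they pair the libraries. The consensus correlation within a mouse was -0.0036 in the fit over the 4 nuclei, so the random block had almost no effect there. Fits were tested on simulated counts that held no batch or mouse effects. That test cannot check the batch covariate, the mouse block or changes as small as most reported here. Members and gene lists were chosen with earlier results of these data known. Named were members called in a fasting fit, the 8 smallest adjusted p values in a nucleus test, the 2 smallest p values in each fasting test, isoform partners, catalytic core members and the 2 highest and lowest per length in each complex. Alternatives were other pseudocounts, filters and scalings, library weights, fits without batch or block, each library or mouse left out, and structural subunits alone. The batch comparison, the fit per mouse and the fits without batch 1 were added after the data were seen. A marker gene is not reported here and was left out of its list.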

Additional observations from a re-analysis of the deposited data

Results flagged for a closer look

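In groups of 4 to 6 libraries, values of 7 members (Cox5a, Cox6a1, Cox6a2, Cox8a, Cox17, Sdhaf3 and Uqcrc2) were examined for a library standing apart from the rest of its group. Of 56 gene and group combinations, 10 held one. Chance flags about 1 in 20 independent groups. These genes are among those called above and the combinations share mice, so the count cannot be set directly against that rate. Of the 10, 9 were batch 1 libraries, each the only one of its batch in its group, from 1 fed and 1 fasted mouse.

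Cox8a stood apart in 4 groups. The batch 1 value was 213 CPM in fed ARC (others 101.1 to 127.3), 344.5 CPM in fasted PVN (others 132 to 160), 248 CPM in fed PVN (others 98.6 to 121) and 291 CPM in fed VMH (others 114 to 131). Cox6a1 of the fed mouse was 153 CPM in fed PVN (others 82.8 to 95.2) and 328 CPM in fed VMH (others 102.5 to 161). Cox5a of the same mouse was 80.8 CPM in fed VMH (others 42.5 to 52.0).

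Sdhaf3 stood apart in both directions in the PVN: at 71.1 CPM in the fasted mouse (others 17.4 to 23.3) and at 10.6 CPM in the fed mouse (others 29.7 to 31.2). Cox17 was low at 72.5 CPM in a fasted ARC library of batch 3 (others 86.1 to 88.4).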

How the results depend on the processing

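Fasting calls of members stayed at 0 in each nucleus and in the test of the difference between nuclei under every alternative run. Over the 4 nuclei the count of 1 fell to 0 without the batch covariate and to 0 with 1 value per mouse, and ranged from 0 to 1 when 1 mouse was left out. With 1 library or mouse left out, median fasting changes crossed 0 in the ARC and over the 4 nuclei, and ran from -0.03 to 0.07 in the ARC, 0.03 to 0.17 in the DMH, 0.006 to 0.09 in the PVN, -0.13 to -0.01 in the VMH and -0.02 to 0.04 over the 4 nuclei. In the F-test between nuclei 11 to 17 members were called over the alternatives, and 12 to 18 with 1 mouse left out. The count in the ARC fell from 4 to 2 with structural subunits only, by construction, and was 3 to 5 with 1 mouse left out. In the DMH it was 2 to 6 with 1 mouse left out, in the PVN 6 to 9 and in the VMH 10 to 13. Without the replicate block by mouse the pairing was not used: the DMH count rose to 7, the F-test gave 17, the ARC, PVN and VMH gave 4, 8 and 12, and the fit over the 4 nuclei gave 1, so that the block changed no other count by over 1.5 times. The cause of these changes was not tested. No named change turned its direction under the alternatives run. With 1 mouse left out, Cox17 in the DMH lost its call for 1 mouse (adjusted p = 0.105). Without batch 1, the calls of Ndufv1 in the ARC, Ndufa9 in the DMH, Cox6a1 and Ndufa13 in the PVN, and Ndufs8, Ndufb7, Cox5b and Sdhaf1 in the VMH were lost. Scaling to the sum over all genes ended the calls of Ndufv1 in the ARC, Sdhd in the DMH, and Ndufb7 and Cox5b in the VMH. Median ratio scaling ended that of Cox6a1 in the PVN. The fit without the mouse block lost Ndufv1 in the ARC, Sdhd in the DMH and Sdhaf1 in the VMH. At the median inferred total of 4.10 M reads behind the CPM, Cox6a2, Cox6b2 and Sdhaf1 rest on few reads, and differences in them below the reported errors were not detectable.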
